A study of Mus musculus with 16 samples.

Results

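Lipoprotein lipase and 9 further genes of fatty acid uptake were followed in interscapular brown adipose tissue: Lpl, Gpihbp1, Lmf1, Angptl4, Vldlr, Cd36, Fabp3, Fabp4, Fabp5 and Mfsd2a. They were taken by name, and all 10 had a value in every library, among 15350 genes measured. The 16 libraries were mRNA of C57BL/6J mice in 4 groups of 4: wild type (WT) or Ucp1-knockout (KO, Ucp1-/-, lacking the uncoupling protein of brown fat mitochondria), each given saline or isoproterenol. Isoproterenol, an agonist of beta-adrenergic receptors, was infused from an implanted minipump at 60 mg per kg per day for 3 days, and every group carried a pump. The labels give no age or sex, do not say which part of Ucp1 is deleted, and do not say whether each library came from its own animal, so the p-values rest on a spread between samples that may be technical.

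Brown adipocytes burn fatty acids, and much of that fuel reaches them from triglyceride-rich lipoproteins in the blood. Lipoprotein lipase is made by adipocytes, folded with the help of lipase maturation factor 1 (LMF1) and carried by GPIHBP1 to the luminal face of capillary endothelium, where it hydrolyses triglycerides. ANGPTL4 inactivates the lipase, the VLDL receptor binds apolipoprotein E-rich particles, CD36 helps fatty acids across the plasma membrane, and the fatty acid-binding proteins carry them in the cytosol. MFSD2A moves lysophosphatidylcholine, a phospholipid with a single acyl chain, into cells.

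Sequencing depth ran from 9004515 to 20986735 reads per library over the listed genes. The targeted gene, Ucp1, was at 2298 to 3449 CPM (reads per 1000000 reads) in WT saline, between 8905 and 18458 in WT isoproterenol, between 410 and 1156 in KO saline, and between 19.0 and 2129 in KO isoproterenol, so reads were still counted on Ucp1 in every KO library. Brown adipocyte markers were found in all 16 libraries, with summed levels of 6934 to 28357 CPM in the groups other than KO isoproterenol. Ucp1 itself is among these 8 markers, so their sums in WT and KO also hold the difference in the targeted gene. In KO saline alone they summed to 6934 to 9929 CPM. The 4 KO isoproterenol libraries stood apart from each other: their brown adipocyte markers summed to 152 to 13828 CPM and their 12 macrophage markers to 1308 to 10520 CPM, against 274 to 1167 CPM in the other groups. The library labelled KO isoproterenol 1 had the lowest adipocyte and the highest macrophage marker sum, and the responses of the 10 genes in KO are also given without it.

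In WT brown fat, isoproterenol raised Lpl, Fabp5 and Mfsd2a and lowered Angptl4. The other 6 genes did not pass the test (limma on the log2 values of all 16 libraries, Benjamini-Hochberg adjusted p under 0.05). In KO brown fat, Fabp5 and Mfsd2a rose and Lmf1, Angptl4, Vldlr and Fabp3 fell. Of all 15350 genes, 7.6% were called higher and 8.98% lower in WT, and 23.8% higher and 24.8% lower in KO, so that 4 of 10 genes in WT and 6 of 10 in KO stand beside these shares. The median log2 fold change of the 10 genes was 0.03 in WT and -0.04 in KO, against -0.02 and -0.00 over all genes. Scaling libraries by their totals moved the median of all genes to -0.13 in WT and 0.18 in KO, and the calls over all genes to 770 higher and 1748 lower in WT and to 4493 higher and 2939 lower in KO. The 4 calls in WT became 2 when WT saline 2, WT saline 3, WT saline 4, WT isoproterenol 1, WT isoproterenol 2 or WT isoproterenol 4 was left out. The 6 calls in KO became 3 without KO saline 2 and 2 when only the KO libraries were fitted.

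**Figure D1:**
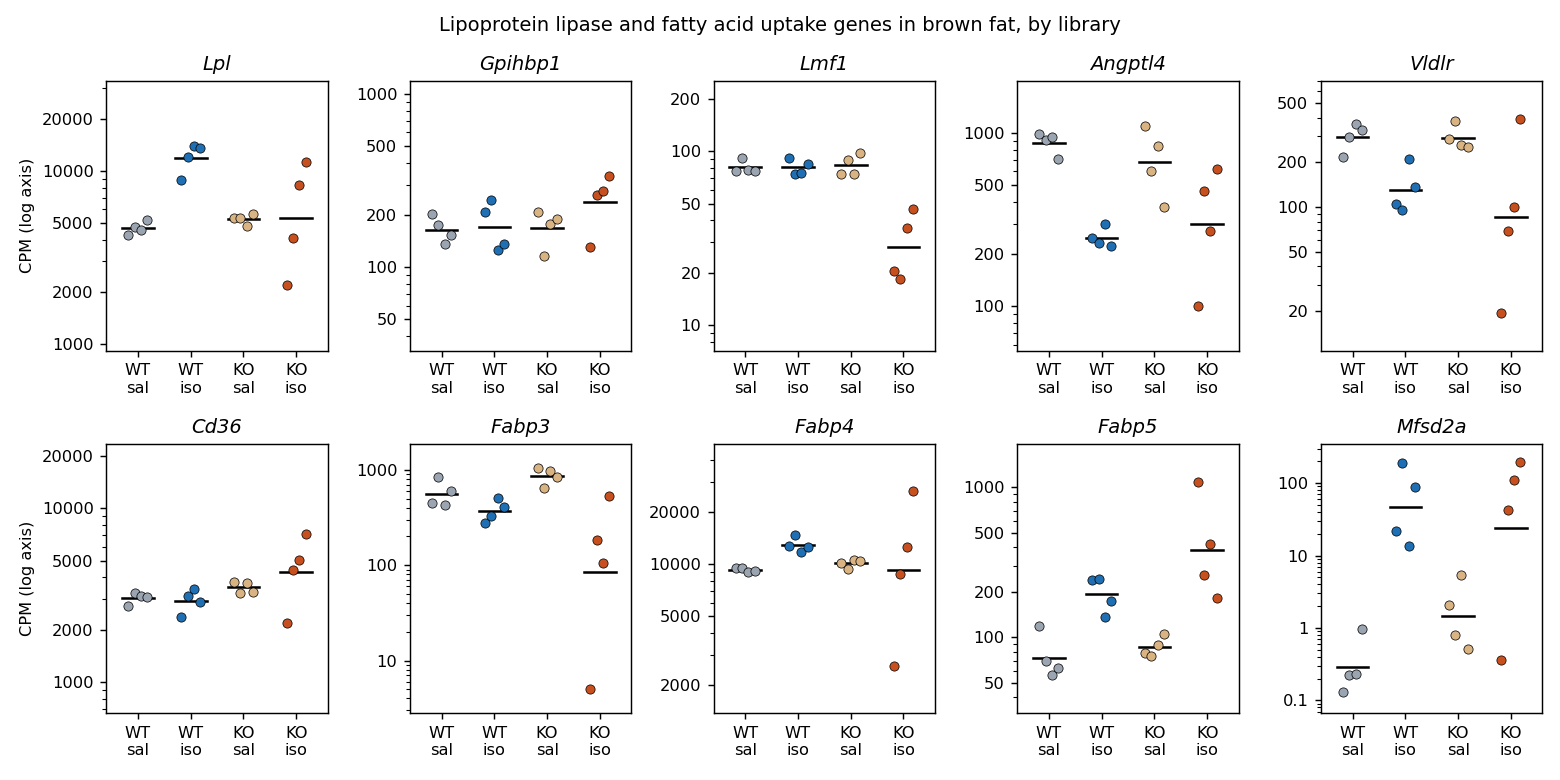
Level of each gene in CPM (log axis) in the 4 libraries of each group (sal, saline; iso, isoproterenol; points, libraries; bars, mean of the log2 values). Lpl is higher in all 4 WT isoproterenol libraries than in any WT saline library, and the KO isoproterenol libraries spread from 2180 to 11286 CPM.

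Lpl encodes the lipase itself. In WT saline the 4 libraries held 4248, 4746, 4553 and 5173 CPM, and in WT isoproterenol 8797, 11972, 13848 and 13530 CPM. Every isoproterenol library lay above every saline library, and Lpl rose 2.54-fold (log2 1.34, SE 0.44, adjusted p = 0.0466). In a bulk library, more transcript per cell and more cells of a type cannot be told apart. The call was close to the threshold: the adjusted p was 0.105 with the WT libraries blocked by replicate number, was 2.23e-04 when only the WT libraries were fitted, and ran up to 0.108 when 1 library was left out, with the call kept only without KO isoproterenol 1, 3 or 4.

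The KO libraries did not show a common Lpl response. Those of KO saline were at 5319, 5327, 4814 and 5617 CPM, close to WT saline. KO isoproterenol libraries were at 2180, 4070, 8303 and 11286 CPM, 2 of them below and 2 above all of KO saline. The mean difference was 0.03 on the log2 scale (SE 0.44, adjusted p = 0.963), and 0.46 without KO isoproterenol 1 (adjusted p = 0.242). Under isoproterenol Lpl was 2.21-fold lower in KO than in WT (log2 -1.14, SE 0.44, adjusted p = 0.0440), with overlapping groups. That call was lost without KO isoproterenol 1 (log2 -0.71, adjusted p = 0.0787), with the WT replicate block (adjusted p = 0.0886), when only the isoproterenol libraries were fitted (adjusted p = 0.204), when libraries were scaled by their totals (adjusted p = 0.0670), and when any library other than WT isoproterenol 1, KO isoproterenol 3 or KO isoproterenol 4 was left out. The WT and KO responses differed by -1.31 (SE 0.62, adjusted p = 0.128), which did not pass, and by -0.88 without KO isoproterenol 1 (adjusted p = 0.141).

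Gpihbp1, the endothelial anchor that carries the lipase to the capillary lumen, held 203, 176, 135 and 153 CPM in WT saline and 208, 243, 126 and 136 CPM in WT isoproterenol. The groups overlapped, and the difference was 0.06 (SE 0.29, adjusted p = 0.923), or -0.06 with libraries scaled by their totals. In KO saline there were 208, 117, 179 and 190 CPM, and in KO isoproterenol 130, 260, 277 and 336 CPM. Of the KO isoproterenol libraries 3 lay above all of KO saline and the library labelled 1 did not. The difference was 0.49 (SE 0.29, adjusted p = 0.178), and it passed the test without KO isoproterenol 1, the lowest library (0.77, adjusted p = 0.0173). Without KO isoproterenol 4, the highest library, it was 0.32 (adjusted p = 0.384). The 14 endothelial markers summed to 2336 to 2864 CPM in WT saline, between 2460 and 3495 CPM in WT isoproterenol, between 1790 and 2759 CPM in KO saline, and between 2727 and 2983 CPM in KO isoproterenol, with 4 of the 14 called higher in WT and 6 in KO. Set against the mean of these markers within each library, the log2 ratio of Gpihbp1 was -0.25, 0.87, 0.92 and 1.11 in KO isoproterenol, between 0.26 and 0.72 in KO saline, and at most 0.47 in WT isoproterenol. The KO isoproterenol libraries other than the one labelled 1 lay above both of these groups. The differences of 0.16 within KO and 0.44 between genotypes under isoproterenol became 0.46 and 0.74 without that library. Without KO isoproterenol 4 they became 0.01 and 0.29. No pair of groups passed with all 16 libraries (exact two-sided permutation tests, p of 0.171 or more, where the smallest possible p is 0.0286).

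Lmf1, the chaperone-like factor of the endoplasmic reticulum that the lipase needs to fold, fell in KO brown fat under isoproterenol. WT saline libraries held 77.6, 91.7, 77.7 and 77.7 CPM, WT isoproterenol 91.2, 74.6, 75.2 and 85.1 CPM, and KO saline 73.9, 88.9, 74.3 and 98.6 CPM. KO isoproterenol libraries held 20.5, 18.3, 36.0 and 46.4 CPM, all below every other library of the study. Lmf1 was 2.96-fold lower in KO isoproterenol than in KO saline (log2 -1.57, SE 0.23, adjusted p = 8.38e-05) and 2.89-fold lower than in WT isoproterenol (log2 -1.53, SE 0.23, adjusted p = 1.53e-04). In WT the difference was 0.00 (SE 0.23, adjusted p = 0.992), and -0.11 with libraries scaled by their totals. The difference between the responses was itself called (-1.57, SE 0.32, adjusted p = 0.00488), beside 10.9% of all genes called higher and 13.8% lower in that comparison. The fall in KO held in each of the 16 fits that left out 1 library, with log2 values of -1.81 to -1.36, and -1.41 without KO isoproterenol 1, where the difference between the responses was -1.42 (adjusted p = 0.00497).

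Of the 10 genes, 5 had an entry in the RefSeq promoter table of GRCm38.p6 (Mfsd2a, Fabp3, Cd36, Lmf1 and Vldlr). The 250 bases before each start were searched on both strands for TGACG, the core of the cAMP response element, for AGGTCA, the half-site of nuclear receptors such as the PPARs, and for AGGTCANAGGTCA, 2 half-sites with a spacer of 1 base, which contains the half-site. Over 32851 such windows, 17.8% held TGACG, 14.0% held AGGTCA and 0.0335% held the repeat. The sequences below are those of the called genes with a match, 5' to 3' on the gene's own strand, with the match in capitals. Each stops before the first annotated transcript base, which leaves 161 of the 250 bases for Lmf1, 107 for Fabp3 and all 250 for Mfsd2a. Distances are counted from the RefSeq start. The Lmf1 stretch is chr17:25578924-25579084 (+ strand), and its capitals are TGACG read on the opposite strand, 187 to 183 bases before the start. The Fabp3 stretch is chr4:130308488-130308594 (+ strand), with TGACG on its own strand 149 to 145 bases before the start. The Mfsd2a stretch is chr4:122961189-122961438 (- strand), with AGGTCA on its own strand 213 to 208 bases before the start.
Lmf1: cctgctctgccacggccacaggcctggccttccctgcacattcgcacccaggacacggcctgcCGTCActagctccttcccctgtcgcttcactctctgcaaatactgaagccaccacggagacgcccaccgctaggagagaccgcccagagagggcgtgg
Fabp3: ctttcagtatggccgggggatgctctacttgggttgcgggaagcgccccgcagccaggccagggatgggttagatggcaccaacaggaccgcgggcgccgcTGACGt
Mfsd2a: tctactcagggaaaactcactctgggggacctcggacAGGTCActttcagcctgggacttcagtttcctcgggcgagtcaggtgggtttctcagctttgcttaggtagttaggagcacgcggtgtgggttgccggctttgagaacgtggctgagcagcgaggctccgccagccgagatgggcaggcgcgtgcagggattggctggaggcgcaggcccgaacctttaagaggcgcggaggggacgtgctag
The Cd36 window held AGGTCA on its opposite strand, 228 to 223 bases before the RefSeq start, and neither Vldlr window held any of the motifs. The Cd36 window and the later Vldlr window held no base before the gene's first annotated transcript base, so they lie within the annotated gene. None of the windows held the repeat. These matches describe letters and show no binding.

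Angptl4, the secreted inhibitor of the lipase, fell with isoproterenol in both genotypes. WT saline libraries held 984, 905, 951 and 707 CPM and WT isoproterenol libraries 247, 231, 297 and 222 CPM. The groups were far apart, and Angptl4 was 3.55-fold lower (log2 -1.83, SE 0.44, adjusted p = 0.0117), a call that held in all 16 fits that left out 1 library. KO saline libraries were more scattered, at 1104, 602, 838 and 374 CPM, and KO isoproterenol libraries held 100, 464, 271 and 620 CPM. These groups overlapped, and the fall was 2.27-fold (log2 -1.18, SE 0.44, adjusted p = 0.0376). The call in KO was lost without KO isoproterenol 1 (log2 -0.66, adjusted p = 0.105), without KO isoproterenol 3 or KO saline 1, 2 or 3 (adjusted p up to 0.114), when only the KO libraries were fitted (adjusted p = 0.144) and when libraries were scaled by their totals (adjusted p = 0.0649). The responses of WT and KO differed by 0.64 (SE 0.63, adjusted p = 0.476), and by 1.17 without KO isoproterenol 1 (adjusted p = 0.0618).

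Within each library, the ratio of Lpl to its inhibitor Angptl4 was 4.32, 5.24, 4.79 and 7.32 in WT saline and 35.7, 51.9, 46.6 and 60.9 in WT isoproterenol. The 2 groups did not overlap, with a log2 difference of 3.17 (exact two-sided permutation p = 0.0286, the smallest possible, and 0.114 after adjustment over 16 tests). That test takes no account of pairs. Between WT libraries of the same number the ratio was higher under isoproterenol in 4 of 4 pairs, by 3.05 to 3.31. An exact sign-flip test of 4 pairs cannot go below 0.125. In KO the ratio was 4.82, 8.84, 5.74 and 15.0 under saline and 21.8, 8.76, 30.6 and 18.2 under isoproterenol. KO isoproterenol 2 was the library that kept these groups from separating, and the difference was 1.21 (exact permutation p = 0.0857, adjusted 0.229), or 1.12 without KO isoproterenol 1. Under isoproterenol all 4 KO libraries had a lower ratio than all 4 WT libraries (log2 -1.41, exact permutation p = 0.0286, adjusted 0.114), and the difference was -1.50 without KO isoproterenol 1.

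**Figure D2:**
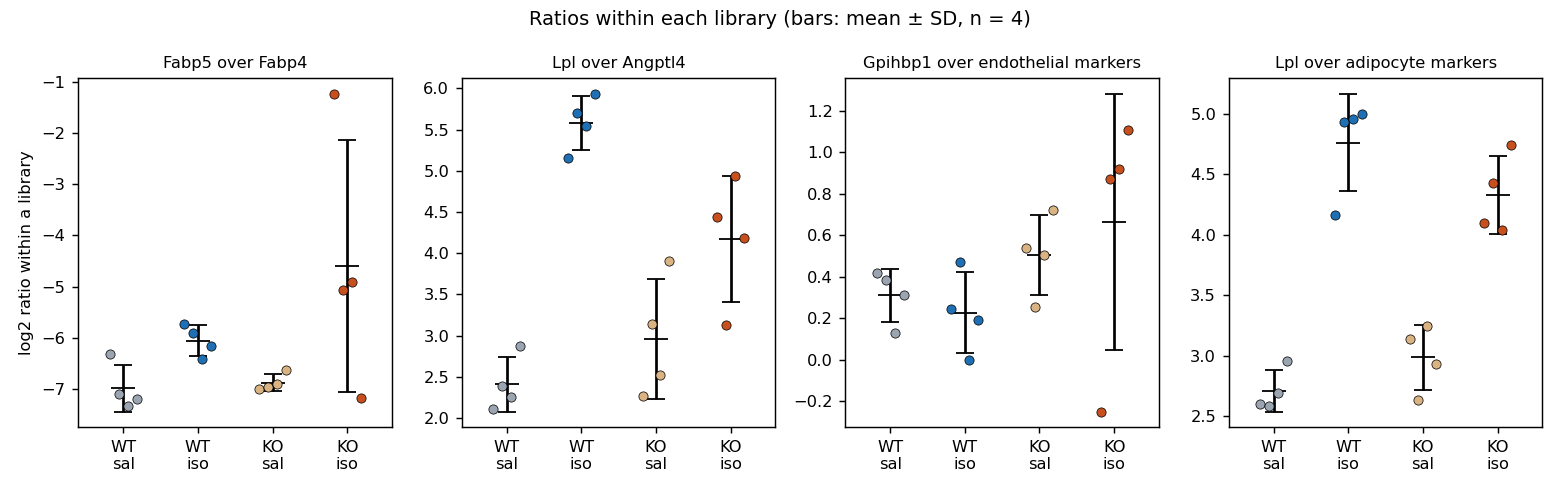
Log2 ratios of transcripts within each library, by group (points, libraries; bars, mean and SD, n = 4): Fabp5 over Fabp4, Lpl over Angptl4, Gpihbp1 over the mean of the endothelial markers and Lpl over the mean of the adipocyte markers. Lpl over Angptl4 runs from 2.11 to 2.87 in WT saline and from 5.16 to 5.93 in WT isoproterenol.

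Vldlr, the receptor for very low density lipoprotein, held 216, 297, 365 and 330 CPM in WT saline and 105, 95.9, 212 and 137 CPM in WT isoproterenol. No WT isoproterenol library reached the lowest saline library, but the gap between 212 and 216 CPM was small. The log2 difference of -1.18 (SE 0.60, adjusted p = 0.201) did not pass in the fit of all libraries, and it did when only the WT libraries were fitted (adjusted p = 0.00608), when libraries were weighted (adjusted p = 0.00515) and without KO isoproterenol 1 or KO isoproterenol 4. The KO saline libraries held 288, 378, 263 and 255 CPM and those of KO isoproterenol 19.6, 69.0, 101 and 391 CPM. The KO isoproterenol libraries thus included both the lowest and the highest Vldlr level of the study. The fall in KO was 3.42-fold (log2 -1.77, SE 0.60, adjusted p = 0.0233). It was lost without KO isoproterenol 1 (log2 -1.07, adjusted p = 0.0590), without KO isoproterenol 2 or KO saline 2, and when only the KO libraries were fitted (adjusted p = 0.0988).

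Cd36, the membrane protein that helps take up long-chain fatty acids, did not pass the test in any comparison. WT saline libraries held 2735, 3240, 3108 and 3098 CPM and WT isoproterenol libraries 2356, 3107, 3417 and 2882 CPM, a difference of -0.06 (SE 0.32, adjusted p = 0.926). KO saline libraries were at 3774, 3246, 3700 and 3313 CPM, all slightly above WT saline, and KO isoproterenol libraries at 2171, 4442, 5012 and 7146 CPM. In KO isoproterenol 3 libraries were higher than all of KO saline and the library labelled 1 was lower than all of it. The KO difference was 0.30 (SE 0.32, adjusted p = 0.465), and without KO isoproterenol 1, the lowest library, it was 0.63 (adjusted p = 0.0290). Without KO isoproterenol 4, the highest library, it was 0.06 (adjusted p = 0.880). Against WT isoproterenol, KO isoproterenol was higher by 0.57 (SE 0.32, adjusted p = 0.167). That difference was 0.89 without KO isoproterenol 1 (adjusted p = 0.00438) and 0.32 without KO isoproterenol 4 (adjusted p = 0.365). Both calls thus depended on leaving out the lowest library.

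Of the 3 cytosolic fatty acid-binding proteins, Fabp5 rose in both genotypes, Fabp3 fell in KO and Fabp4 passed no test in the fit of all 16 libraries. Fabp4, the adipocyte form, held 9471, 9536, 9022 and 9092 CPM in WT saline and 12782, 14732, 11703 and 12586 CPM in WT isoproterenol. The groups did not overlap, yet the difference of 0.48 (SE 0.54, adjusted p = 0.597) did not pass against the spread over all 16 libraries, while it did against the spread of the WT libraries alone (adjusted p = 0.0188). KO saline libraries were at 10117, 9401, 10568 and 10413 CPM and KO isoproterenol libraries at 2577, 8733, 12639 and 26476 CPM. The highest of these was 10.3 times the lowest, and the mean difference was -0.12 (SE 0.54, adjusted p = 0.876), with the opposite sign without KO isoproterenol 1 (0.50, adjusted p = 0.223) and when libraries were scaled by their totals (0.06).

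Fabp5, the epidermal form, which macrophages and endothelial cells also make, was low under saline. WT saline libraries held 118, 69.5, 56.1 and 62.4 CPM and WT isoproterenol libraries 241, 245, 137 and 175 CPM. The groups did not overlap, and the rise was 2.65-fold (log2 1.41, SE 0.41, adjusted p = 0.0306). It was lost when libraries were scaled by their totals (adjusted p = 0.0595) and when WT saline 2, 3 or 4 or WT isoproterenol 1, 2 or 4 was left out (adjusted p up to 0.0882).
In KO, saline libraries were at 79.1, 75.5, 88.3 and 105 CPM and KO isoproterenol libraries at 1085, 261, 422 and 183 CPM. All 4 lay above KO saline, and the rise was 4.46-fold (log2 2.16, SE 0.41, adjusted p = 6.51e-04), kept in all 16 fits that left out 1 library, with a log2 value of 1.66 without KO isoproterenol 1 (adjusted p = 3.51e-04). The order of the 4 KO isoproterenol libraries in Fabp5 was that of their macrophage marker sums, which were 10520, 2685, 5961 and 1308 CPM. It was also the order of their neutrophil sums (451, 141, 181 and 68.1 CPM) and lymphocyte sums (15.7, 4.32, 9.25 and 3.21 CPM). The mural and fibroblast sums, 6071, 1813, 4719 and 1756 CPM, stood in the same order. All 12 macrophage markers were called higher in KO and 3 of 12 in WT. Neutrophil markers summed to 68.1 to 451 CPM in KO isoproterenol against 5.56 to 31.7 CPM in the other groups, with 6 of 6 called higher in KO and 3 of 6 in WT. Of 8 measured lymphocyte markers 0 were called higher and 3 lower in KO, and they summed to 10.6 to 27.4 CPM in KO saline. Of 9 mural and fibroblast markers 3 were called higher and 2 lower in KO, and they summed to 2297 to 2620 CPM in KO saline. The 3 measured keratinocyte markers summed to 5.54, 286, 14.6 and 13.6 CPM in KO isoproterenol against 3.11 to 6.91 CPM elsewhere, with 1 called higher in KO and 1 in WT. The part of macrophage, neutrophil, lymphocyte, mural, fibroblast or keratinocyte transcripts in the Fabp5 level was not tested.

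Fabp3, the heart and muscle form, which brown adipocytes express strongly, fell in KO. WT saline libraries held 454, 836, 428 and 596 CPM and WT isoproterenol libraries 278, 331, 501 and 405 CPM, overlapping (-0.59, SE 0.93, adjusted p = 0.715). KO saline libraries held 1044, 648, 984 and 842 CPM, and KO isoproterenol libraries 5.02, 185, 106 and 538 CPM. All 4 lay below KO saline, and the library labelled 1 lay far below the others. Fabp3 was 10.1-fold lower (log2 -3.34, SE 0.93, adjusted p = 0.00834), and the log2 value was -1.98 without that library (adjusted p = 0.00125). The call was lost when only the KO libraries were fitted (adjusted p = 0.0619). The responses of WT and KO differed by -2.75 (SE 1.32, adjusted p = 0.138), and by -1.38 without KO isoproterenol 1 (adjusted p = 0.0848).
Fabp3 lies across from Gm10570 and Zcchc17 on the opposite strand, and whether the counting used strand is not given in the sources used here. Their mean levels were 5.45 and 27.5 CPM in KO saline and 1.09 and 31.2 CPM in KO isoproterenol. The pseudogene Fabp3-ps1, a near-copy that could share reads, was at a mean of 4.16 CPM in KO saline and 0.936 CPM in KO isoproterenol.

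Skeletal muscle, which also makes Fabp3, was seen as summed marker levels that spread within every group, from 20.6 to 9307 CPM in WT saline, between 7.99 and 2957 CPM in WT isoproterenol, between 11.1 and 831 CPM in KO saline, and between 14.6 and 748 CPM in KO isoproterenol. None of its 12 markers was called by limma in any of the 5 comparisons, and 0 had an unadjusted p under 0.05. Its part in the Fabp3 level was not tested.

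The ratio of Fabp5 to Fabp4 within a library was 0.0125, 0.00729, 0.00621 and 0.00686 in WT saline and 0.0189, 0.0167, 0.0117 and 0.0139 in WT isoproterenol. The log2 difference was 0.93 (exact two-sided permutation p = 0.0571). That test takes no account of pairs. Between libraries of the same number the ratio was higher under isoproterenol in 4 of 4 pairs, by 0.59, 1.19, 0.91 and 1.02 on the log2 scale, where an exact sign-flip test of 4 pairs cannot go below 0.125. In KO isoproterenol 1 the ratio reached 0.421, against 0.0298, 0.0334 and 0.00693 in the other KO isoproterenol libraries and 0.00782 to 0.0101 in KO saline. The KO difference was 2.28 (exact permutation p = 0.143) and 1.16 without that library.

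**Figure D3:**
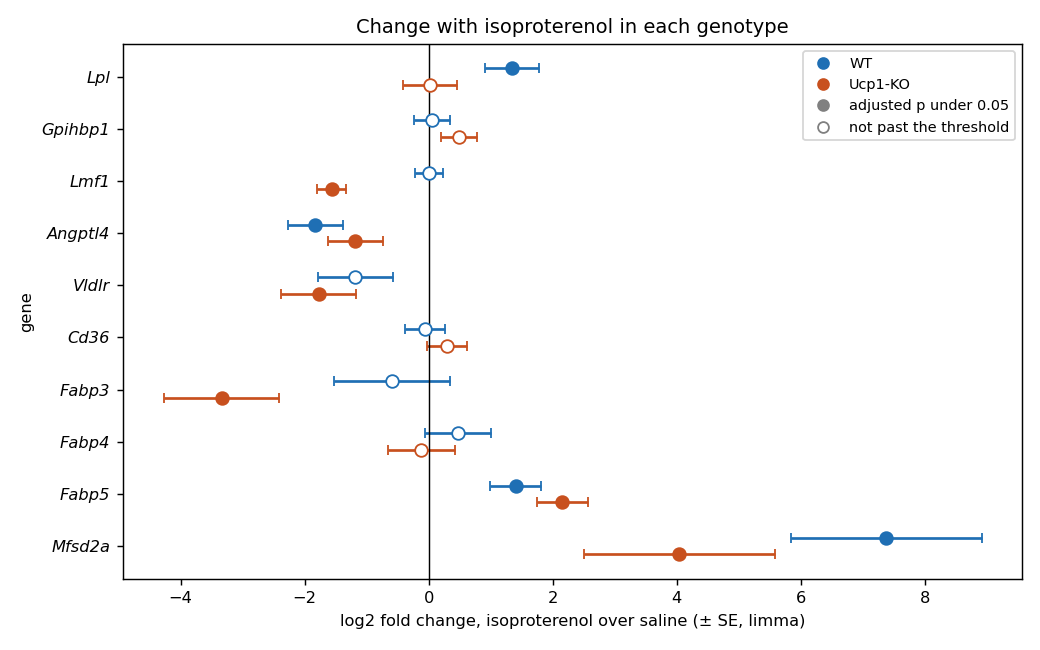
Log2 fold change of isoproterenol over saline for each gene in WT and in Ucp1-KO, with the standard error from limma; filled points passed an adjusted p of 0.05. Mfsd2a has the highest values, 7.38 in WT and 4.04 in KO, and Fabp3 the lowest, -3.34 in KO.

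Mfsd2a, the lysophosphatidylcholine transporter, went from near absence to clear expression. WT saline libraries held 1, 2, 2 and 11 reads (0.132, 0.226, 0.233 and 0.955 CPM with the prior count of 0.5 reads), and WT isoproterenol libraries 235, 2337, 197 and 1259 reads (22.2, 191, 13.6 and 88.2 CPM). The lowest isoproterenol library was far above the highest saline library, while the isoproterenol libraries differed among themselves as well. The fitted rise was 7.38 on the log2 scale (SE 1.54, adjusted p = 0.00496). With so few reads under saline its size depends on the prior count, and it was 5.18 with a further 1 CPM added before the logarithm.
KO saline libraries held 29, 9, 73 and 4 reads (2.09, 0.791, 5.33 and 0.517 CPM), more than WT saline by 2.36, which did not pass (SE 1.54, adjusted p = 0.837). KO isoproterenol libraries held 7, 696, 2140 and 3872 reads (0.357, 43.0, 112 and 194 CPM). In 3 of these 4 libraries Mfsd2a was above all of KO saline, and in the library labelled 1 it was below all of it. The rise in KO was 4.04 (SE 1.54, adjusted p = 0.0407), and 6.06 without KO isoproterenol 1 (adjusted p = 2.51e-04). The call was lost when only the KO libraries were fitted (adjusted p = 0.119) and when KO isoproterenol 2, 3 or 4, KO saline 1, 2 or 4 or WT saline 2 or 3 was left out (adjusted p up to 0.123). The responses did not pass a test of their difference (-3.34, SE 2.18, adjusted p = 0.274), and the difference was -1.31 without KO isoproterenol 1 and -4.34 without KO isoproterenol 4 (adjusted p = 0.510 and 0.133).

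Between genotypes under saline, none of the 10 genes was called, beside 0.0717% of all genes called higher and 0.0261% lower in KO. By limma the unadjusted p lay under 0.05 for 0 of the 10. Of 15350 genes 15 were called in that comparison, and 5 with the WT replicate block. The median log2 difference of the 10 genes was 0.15, against -0.00 over all genes. Cd36 was the only member whose 4 KO saline libraries all lay above the 4 WT saline libraries (0.20, SE 0.32, adjusted p = 0.982). How many of all genes were separated in this way was not counted. Under isoproterenol Lpl and Lmf1 were called lower in KO than in WT and none was called higher, while 21.6% of all genes were called higher and 23.1% lower. With libraries scaled by their totals the calls were 2 higher and 1 lower, with a median over all genes of 0.27 and 5030 genes higher and 2527 lower, and with the WT replicate block 1 gene was called. Without KO isoproterenol 1, Gpihbp1 (0.76, adjusted p = 0.0208) and Cd36 were called higher and Lmf1 lower. Without KO isoproterenol 4, Fabp5 was called higher (1.34, adjusted p = 0.00883), and Vldlr (-1.35, adjusted p = 0.0162), Fabp3 (-3.00, adjusted p = 0.00824), Lpl and Lmf1 were called lower. Lmf1 alone was called in the comparison of the 2 responses. Without KO isoproterenol 4, Lpl (-1.67, adjusted p = 0.0194) and Fabp3 (-3.63, adjusted p = 0.0226) were called there as well, and with libraries scaled by their totals the median of all genes there was 0.34, with 2895 genes higher and 1477 lower.

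**Figure D4:**
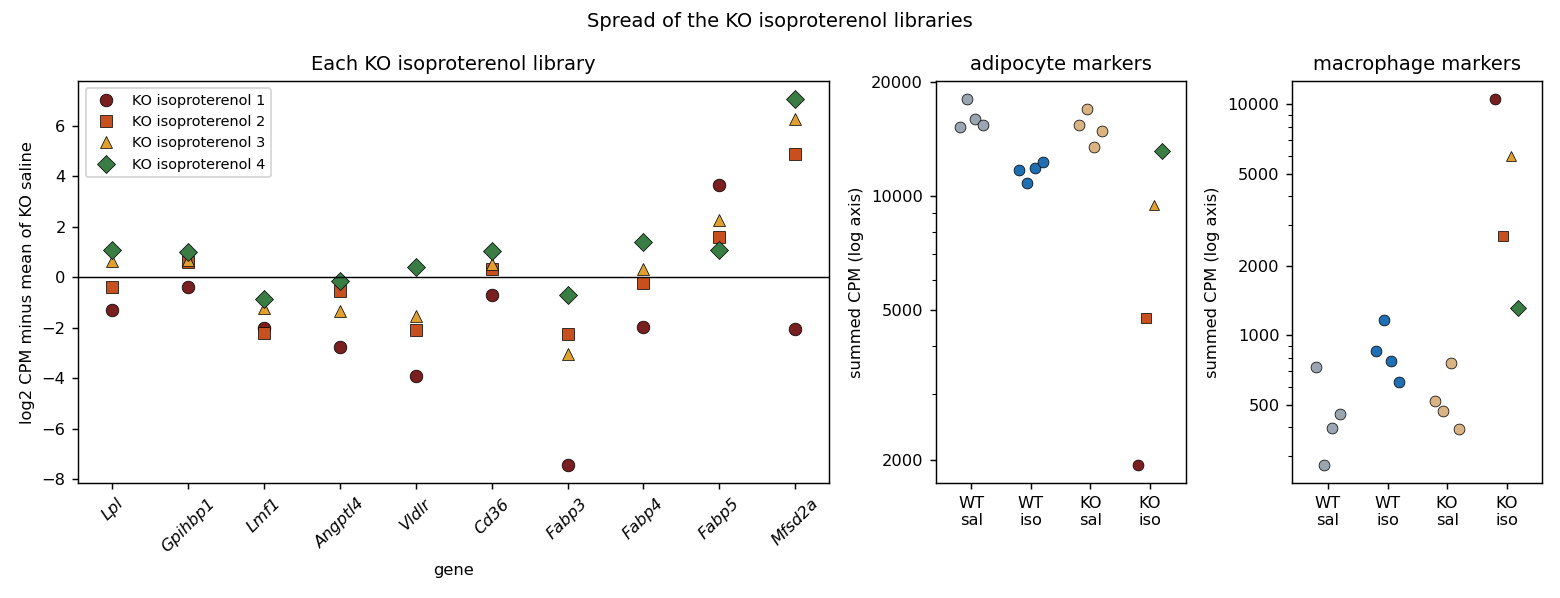
Left, log2 CPM of each gene in each of the 4 KO isoproterenol libraries, minus the mean of KO saline; centre and right, summed CPM of 10 adipocyte and 12 macrophage markers in every library (log axes; groups as labelled). KO isoproterenol 1 has the lowest value for 8 of the 10 genes, the lowest adipocyte sum (1941 CPM) and the highest macrophage sum (10520 CPM).

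Much of the spread in KO isoproterenol was shared between genes. The adipocyte marker sums of the 4 libraries were 1941, 4753, 9438 and 13087 CPM, against 13422 to 16889 CPM in KO saline, and 8 of the 10 markers were called lower in KO and 1, Retn, higher. Lpl, Gpihbp1, Vldlr, Cd36, Fabp4 and Mfsd2a, 6 of the 10 genes, stood in the order of these sums over the 4 libraries. The brown adipocyte marker sums, 152, 3951, 4715 and 13828 CPM, stood in that order too. The share of all genes in that order was not counted, so the 6 are not set apart from other genes. The highest library exceeded the lowest by 2.53 times for Lmf1, 2.58 times for Gpihbp1, 107 times for Fabp3 and 544 times for Mfsd2a. The part of adipocyte content in these levels was not tested.

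Set against the mean of the adipocyte markers within each library, the ratio of Lpl was higher under isoproterenol in both genotypes. It was 6.06, 6.00, 6.46 and 7.74 in WT saline and 17.9, 30.5, 31.0 and 32.0 in WT isoproterenol. In KO it was 8.80, 6.20, 9.47 and 7.61 under saline and 17.1, 21.5, 16.5 and 26.7 under isoproterenol. Neither pair of groups overlapped, with log2 differences of 2.06 in WT and 1.34 in KO (exact two-sided permutation p = 0.0286 each, adjusted p = 0.114). That test takes no account of pairs. Between WT libraries of the same number the log2 ratio was higher in 4 of 4 pairs, by 1.57 to 2.35. An exact sign-flip test of these pairs cannot go below 0.125. The markers themselves moved: 2 of the 10, Lep and Cfd, were called lower in WT, and 8 of the 10 were called lower in KO, where the level of Lpl itself differed by 0.03 on the log2 scale. Without KO isoproterenol 1 the KO difference in the ratio was 1.42.

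Per kilobase of transcript, which allows levels of different genes to be compared, Fabp4 came first in each group, at a mean of 10357 ± 291 CPM per kb in WT saline and 14454 ± 1425 in WT isoproterenol (SD, n = 4). Lpl came second, at 1137 ± 94.2 and 2925 ± 561 CPM per kb, followed in WT saline by Cd36 at 896 ± 63.8 and Fabp3 at 703 ± 227, whose ranges overlapped. Angptl4 (268 ± 37.5) and Gpihbp1 (202 ± 35.6) overlapped as well, and Fabp5 (77.6 ± 28.7) stood below them. Lmf1 (43.7 ± 3.77) and Vldlr (37.9 ± 7.99) were not separated, and Mfsd2a came last at 0.180 ± 0.177. In WT isoproterenol Angptl4 had dropped below Gpihbp1 and Fabp5, to 75.3 ± 10.1 CPM per kb, and Vldlr came last at 17.3 ± 6.62, within the range of Mfsd2a above it. In KO isoproterenol the ranges of all neighbours in the order overlapped except those of Fabp4 and Lpl, and Lmf1 came last at 16.3 ± 7.16.

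The genes most like 3 of the members over the 16 libraries were found by Pearson's r of log2 CPM, given as a description, since libraries share group and cell makeup. Lpl went with Pafah2 (r = 0.969), Scp2 (0.969) and Coq3 (0.963), Gpihbp1 with Cd300lg (0.961), Adgrg1 (0.954) and Myzap (0.893), and Mfsd2a with Elovl3 (0.957), Tmem120a (0.928) and Slco1a1 (0.926). With each group's mean removed, the values were 0.937, 0.957 and 0.946 for Lpl, 0.951, 0.947 and 0.879 for Gpihbp1, and 0.910, 0.861 and 0.792 for Mfsd2a. Elovl3, a fatty acid elongase of brown fat, was at a mean of 4.16 ± 2.67 CPM in WT saline and 600 ± 266 CPM in WT isoproterenol (SD, n = 4).

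The surrounding pathway was described with 5 lists holding 81 genes, of which 70 were measured. In WT 6 of the 70 were called higher and 5 lower (7 in all with the WT replicate block), and in KO 19 higher and 18 lower. These are close to the shares over all genes, 7.6% higher and 8.98% lower in WT and 23.8% higher and 24.8% lower in KO. Without KO isoproterenol 1 these counts were 9 and 8 in WT and 18 and 17 in KO, and without KO isoproterenol 4 they were 11 and 6 in WT and 20 and 21 in KO. When libraries were scaled by their totals, they were 3 higher and 8 lower in WT and 24 higher and 15 lower in KO. The WT count was 6 to 8 in all without WT saline 2, 3 or 4 or WT isoproterenol 2, 3 or 4. Between genotypes, no gene of the 70 was called by limma under saline, where 4 had an unadjusted p under 0.05. Under isoproterenol 12 were higher and 21 lower in KO, or 20 higher and 15 lower with libraries scaled by their totals.

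**Figure D5:**
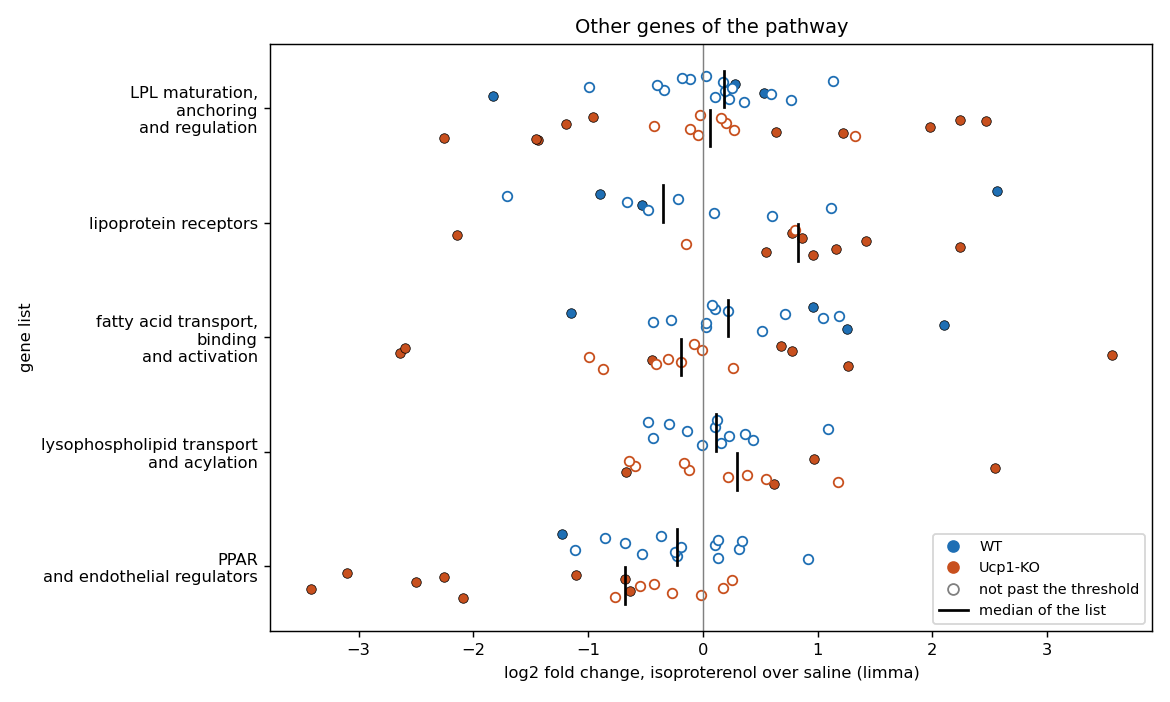
Log2 fold change of isoproterenol over saline for each measured gene of 5 lists, in WT and in Ucp1-KO (filled points, adjusted p under 0.05; bars, median of the list). In KO 7 of 10 lipoprotein receptor genes are called higher and 8 of 15 PPAR and endothelial regulators are called lower. Over all genes 23.8% are called higher and 24.8% lower in KO.

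Among 18 measured genes of lipase maturation, anchoring and regulation, 2 were higher and 1 lower in WT, and 5 higher and 5 lower in KO. Apoe, a lipoprotein ligand that macrophages and adipocytes secrete, fell in WT (log2 -1.83, adjusted p = 0.00263), and Canx, the endoplasmic reticulum chaperone calnexin, and Pcsk7, a proprotein convertase, rose by 0.53 and 0.28. In KO the heparan sulfate proteoglycans Sdc1 and Sdc4 rose by 2.47 and 2.25 (adjusted p = 3.18e-05 and 3.43e-04), and the apolipoprotein Apoc1 fell by 2.25 on the log2 scale (adjusted p = 1.90e-04).

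Of 10 lipoprotein receptor genes, 1 was higher and 2 lower in WT, while in KO 7 were higher and 1 lower. Over all genes 7.6% were called higher and 8.98% lower in WT, and 23.8% higher and 24.8% lower in KO. The median log2 fold change of the 10 was -0.35 in WT and 0.83 in KO, against -0.02 and -0.00 over all genes. Sorl1, a sorting receptor, rose by 2.57 in WT (adjusted p = 0.00293), and Lrpap1, a receptor chaperone, fell by 0.53 on the log2 scale. Scarb1, the HDL receptor, fell in WT and rose in KO, its KO change being named after the values were seen, from 177 ± 18.5 to 94.9 ± 8.24 CPM in WT and from 124 ± 11.3 to 215 ± 34.1 CPM in KO (SD, n = 4). Its responses were -0.90 (adjusted p = 4.63e-04) and 0.78 (adjusted p = 2.50e-04), and their difference of 1.68 (SE 0.19) had an adjusted p of 1.09e-04. Also in KO, Lrp8, a receptor related to Vldlr, rose by 2.24 and Lsr, a lipolysis-stimulated receptor, by 1.42. Both had few reads, with means of 0.815 and 0.922 CPM in KO saline and 4.49 and 3.22 CPM in KO isoproterenol.

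Fatty acid transport, binding and activation had 15 measured genes, 3 higher and 1 lower in WT and 4 higher and 3 lower in KO. The acyl-CoA synthetases Acsl5 and Acsl3 rose in WT by 2.10 and 1.26 (adjusted p = 0.00125 and 0.0301). Got2, a mitochondrial aminotransferase also known as a plasma membrane fatty acid-binding protein, fell by 1.15 on the log2 scale in WT and, named after the values were seen, rose by 0.78 in KO, with a difference of 1.92 (SE 0.31, adjusted p = 0.00136). In KO Fabp7, the brain form, rose by 3.57 from a mean of 0.184 to 2.32 CPM. The fatty acid receptor Ffar4 and the transporter Slc27a2 fell by 2.64 and 2.60 on the log2 scale (adjusted p = 0.00179 and 0.0354). Slc27a2 ran from 3.31 to 443 CPM in KO isoproterenol and from 238 to 477 CPM in KO saline, so these groups overlapped.

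None of 12 lysophospholipid transport and acylation genes was called by limma in WT, where 1 had an unadjusted p under 0.05. In KO 3 were higher and 1 lower, among them the acyltransferase Mboat1 (2.55), the lysosomal lysophospholipid transporter Spns1 (0.97, adjusted p = 3.89e-05) and the thioesterase Lypla1 (-0.67). Mboat1 had few reads, with a mean of 0.408 CPM in KO saline and 2.69 CPM in KO isoproterenol. Of 15 PPAR and endothelial regulators 1 was lower in WT and 8 were lower in KO, with none higher. Over all genes 8.98% were called lower in WT and 24.8% in KO. Vegfb, an endothelial growth factor tied to fatty acid transport, fell by 1.23 on the log2 scale in WT (adjusted p = 0.00948) and by 3.10 in KO (adjusted p = 1.63e-06). Ppara, a nuclear receptor activated by fatty acids, and the coactivator Ppargc1b fell in KO by 3.42 and 2.50 on the log2 scale (adjusted p = 0.00209 and 0.00657).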

How the data were processed

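mRNA of 16 libraries (4 per group) was sequenced with 75 bp single reads from a strand-marking kit, per the labels' protocols. The deposited values are log2 CPM for 15350 genes. The submitters' processing notes name STAR, limma and mm39; tool versions, read counter, strand setting and gene filter were not given in the sources used here. Every value (100%, within 1e-06) was a whole read number plus 0.5 on each library's own step, so depth was recovered, 9004515 to 20986735 reads, and counting error limits genes of a few reads. Groups follow the genotype and treatment labels. Replicate numbers follow the titles (3 KO saline column headers carry another number), and saline samples were taken from the treatment label, since their protocol text describes the infusion.

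Symbols, chromosomes, overlaps and transcript lengths came from GENCODE M21 (15320 identifiers matched, 30 not), whose build differs from mm39, so no gene coordinates are given; promoter windows are RefSeq's on GRCm38.p6. Fits used limma 3.58.1 (R 4.3.3, statmod 1.5.0) on the deposited log2 values: 4 group means, 12 residual degrees of freedom, trend and robust moderation, Benjamini-Hochberg over 15350 genes, called under 0.05, for 5 contrasts; the code was tested on simulated data. Marker and list levels are sums or means of CPM. Ratios were compared by exact two-sided permutation over 70 arrangements. The 10 genes, the lists and the tests were chosen with earlier results of these data known. Named genes are the 10, up to 3 called genes of largest change per list in WT and in KO, and 3 most similar genes for each of Lpl, Gpihbp1 and Mfsd2a; Retn, Lep, Cfd, Gm10570, Zcchc17 and Fabp3-ps1 were named after their values were seen. A further gene that the rule selects is not reported here. Same-numbered libraries deviated together in WT (r of 0.24 to 0.60 between saline and isoproterenol), where the numbers were taken as pairs, but not all in KO (0.04 to 0.26) or between genotypes (-0.48 to 0.25). Alternatives were other scalings, a filter, a pseudocount, fits by pair of groups, library weights, replicate blocks and leaving out each library.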

Additional observations from a re-analysis of the deposited data

Results flagged for a closer look

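Lmf1 responded differently in the 2 genotypes: the KO response minus the WT response was -1.57 on the log2 scale, past the threshold in a test of the difference itself. In the WT saline group, Lmf1 in the library labelled 2 stood apart from the other 3, with a gap to its neighbour of 0.993 of the group's range in log2 CPM, because the other 3 libraries lay within 77.6 to 77.7 CPM. In the WT isoproterenol group, the ratio of Lpl to the adipocyte markers in the library labelled 1 stood apart by 0.918 of the range, at 17.9 against 30.5 to 32.0. Over the 56 groups of 4 libraries examined, chance marks about 1 in 20.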

How the results depend on the processing

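Of 800 log2 fold changes of the 10 genes refitted with 1 library left out, 713 kept their direction and side of the threshold, 48 called changes lost their call, 12 gained one and 27 uncalled changes turned sign. Of 380 under the other alternatives the numbers were 349, 11, 13 and 7. The causes were not tested. Leaving out 1 library gave these ranges. In WT 2 to 5 of the 10 genes were called, 6 to 17 pathway genes and 1623 to 3640 genes in all. In KO 3 to 6 of the 10 were called. Between genotypes under saline 4 to 37 genes were called. Under isoproterenol 1 to 5 of the 10 were called, and between the responses 1 to 3 of the 10 and 16 to 29 pathway genes. Log2 ranges that crossed 0 were, in WT, -0.11 to 0.21 for Gpihbp1, -0.051 to 0.065 for Lmf1 and -0.14 to 0.041 for Cd36, and in KO, -0.33 to 0.46 for Lpl and -0.62 to 0.50 for Fabp4. Between genotypes under saline they were -0.060 to 0.22 for Gpihbp1, -0.040 to 0.10 for Lmf1 and -0.17 to 0.079 for Vldlr. Under isoproterenol they were -0.089 to 0.79 for Angptl4, -1.35 to 0.094 for Vldlr, -0.97 to 0.15 for Fabp4 and -1.99 to 1.04 for Mfsd2a, and between the responses -1.33 to 0.11 for Vldlr and -1.10 to 0.023 for Fabp4.

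With only the 8 libraries compared, 4923 genes and 26 pathway genes were called in WT, 2 of the 10 genes in KO, 50 genes between genotypes under saline, and 1 of the 10 and 20 pathway genes under isoproterenol. With libraries weighted, 5458 genes and 29 pathway genes were called in WT, 728 genes and 4 pathway genes between genotypes under saline, 6 of the 10 under isoproterenol, and 2 of the 10, 6298 genes and 33 pathway genes between the responses. The weights of KO isoproterenol 1 to 4 were 0.167, 0.314, 3.37 and 0.263, against 0.599 to 2.03 in the other groups. Weighted results that use KO isoproterenol therefore rest mostly on the library labelled 3. Weighting also turned the sign of Lmf1 in WT (-0.0086) and under saline (-0.018), Fabp4 in KO (0.23) and Mfsd2a under isoproterenol (0.84). Scaling by library totals turned Gpihbp1 (-0.056) and Lmf1 (-0.11) in WT and Fabp4 (0.063) in KO. Genes of few reads, such as Mfsd2a under saline, limit fold sizes.

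With the replicate number as a block for the WT libraries, a setting chosen after the data were seen, 7 pathway genes were called in WT, 5 genes between genotypes under saline and 1 of the 10 under isoproterenol. With the replicate block in all groups 4, 5 and 3 of the 10 were called in WT, in KO and between genotypes under isoproterenol, and Angptl4 in KO had an adjusted p of 0.0584 by limma.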
